A study of Mus musculus with 6 samples.

Results

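The histone deacetylase (HDAC) family was examined through 10 genes, Hdac1, Hdac2, Hdac3, Hdac4, Hdac5, Hdac6, Hdac7, Hdac8, Hdac9 and Hdac11, taken by gene symbol from a table of 24054 genes, and all 10 were found and measured. Bulk RNA-seq of polyadenylated RNA from the substantia nigra (SN) was compared between 3 MitoPark mice and 3 littermate controls, none of them treated, at 16 to 17 weeks of age by the labels. MitoParks model Parkinson's disease and carry 2 floxed copies of Tfam (TFAM LoxP/LoxP), the gene for mitochondrial transcription factor A, together with Cre at 1 copy of the dopamine transporter gene (Dat+/Cre), so Tfam is deleted only in cells that express this transporter. By the methods, littermate controls were C57BL/6 mice with 1 floxed copy of Tfam and no Cre (TFAM+/LoxP: Dat+/+), from either MitoPark or parental strain litters. The labels derive the MitoParks from C57BL/6 as well. The labels give the tissue as brain, and the SN is taken from the methods. Th and the other markers of its dopaminergic neurons had counts in every mouse except Pitx3, listed at 0 in MitoPark 1. Some were near the floor: Foxa2 had 3 counts in MitoPark 1. Pitx3 had 4 or 5 counts in the other mice, except for 38 in littermate control 3.

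HDACs remove acetyl groups from lysines of histones and other proteins, and histone acetyltransferases (HATs) add them. Class I members (Hdac1, Hdac2, Hdac3, Hdac8) are mainly nuclear enzymes that work, except for Hdac8, inside corepressor complexes. Class IIa members (Hdac4, Hdac5, Hdac7, Hdac9) shuttle between nucleus and cytoplasm, bind MEF2 transcription factors and are held in the cytoplasm by 14-3-3 proteins after phosphorylation. The class IIb member Hdac6 acts in the cytoplasm on tubulin and other proteins, and Hdac11 is the only member of class IV. The study asked whether the balance of HATs and HDACs shifts when mitochondria fail in dopaminergic (DAergic) neurons, with most of its attention on Hdac2 and Hdac4.

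Identical stretches between members bear on whether a read can be given to the right gene. The longest run of identical bases between the transcripts of any 2 members was 36 bases, shared by Hdac5 and Hdac7 in coding sequence, and the same stretch of 60 coding bases is shown for the 4 class IIa genes from GENCODE M21 (build GRCm38), 5′ to 3′ on the gene's strand. Capitals mark the 42 bases that are the same in all 4 genes.
Hdac4: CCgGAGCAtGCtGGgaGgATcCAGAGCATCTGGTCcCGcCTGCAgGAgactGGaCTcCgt
Hdac5: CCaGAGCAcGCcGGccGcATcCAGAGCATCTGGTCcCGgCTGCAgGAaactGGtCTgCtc
Hdac7: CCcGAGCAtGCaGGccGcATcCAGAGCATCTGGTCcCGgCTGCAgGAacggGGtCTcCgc
Hdac9: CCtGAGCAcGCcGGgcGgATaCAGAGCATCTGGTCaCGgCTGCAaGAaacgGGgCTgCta

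All 4 stretches lie within a single coding exon on the minus strand: exon 15 of Hdac4 (chr1:91970955-91971014), exon 17 of Hdac5 (chr11:102200412-102200471), exon 13 of Hdac7 (chr15:97802695-97802754) and exon 13 of Hdac9 (chr12:34303185-34303244). Against Hdac5, the stretch differed at 12 bases in Hdac4, 8 in Hdac7 and 9 in Hdac9. The best match in Hdac6 differed at 29 bases, and those in Hdac1, Hdac2, Hdac3, Hdac8 and Hdac11 at 33 to 35. Reads were 150 bases long by the methods, and no window of 150 bases was shared between any 2 members. Hdac1 was the member with windows found in other transcripts, with 705 of 3709 (19.0%) present in 2 processed pseudogenes, neither of which is a row of the table, so some reads counted for Hdac1 could have come from them.

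The expected counts summed to between 8140777 and 10528602 per mouse. Tfam, checked first, was at 40.3, 44.4 and 45.5 CPM (read counts scaled to library size with TMM normalization) in littermate controls and at 32.7, 33.1 and 33.2 CPM in MitoParks (log2 fold change -0.40, edgeR's quasi-likelihood test, unadjusted p = 0.00565, adjusted p = 0.999), so the groups did not overlap. Mice differed in DAergic transcripts: the dopamine transporter gene Slc6a3 reached 72.6, 65.3 and 383 CPM in littermate controls 1, 2 and 3, against 13.3, 51.1 and 40.9 CPM in MitoParks 1, 2 and 3. Littermate control 1 and MitoPark 2 had counts from the Y chromosome (1054 and 1663 for Ddx3y) and hardly any of the X-inactivation RNA Xist, while the other 4 mice had 7038 or more Xist counts, so 1 mouse of each group is called a male here, although the labels give no sex. In tissue RNA, fewer cells of a type and less RNA per cell cannot be told apart.

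Per kilobase of the longest transcript, Hdac11 was the most abundant HDAC transcript of the SN and Hdac4 the least. Levels of different genes were compared per length, as CPM per kilobase of the longest transcript of each gene. Hdac11 stood at 130 ± 8.81 CPM per kb (SD, n = 6 mice) and made up 49.5% of the summed level of the 10 members. Hdac2, Hdac5 and Hdac3 followed at 29.3 ± 2.22, 28.3 ± 2.67 and 26.2 ± 2.50 CPM per kb (SD, n = 6). These 3 genes exchanged places between mice, and an exact paired permutation test over the 6 mice did not separate Hdac2 from Hdac5 (ratio 1.04, range 0.978 to 1.14, adjusted p = 0.211 over 9 neighbour pairs) or Hdac5 from Hdac3 (ratio 1.08, range 0.875 to 1.18, adjusted p = 0.161).

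Further down came Hdac1 at 15.6 ± 1.29, Hdac6 at 12.2 ± 1.96 and Hdac8 at 8.79 ± 0.776 CPM per kb (SD, n = 6). Each of these was above the next in 6 of 6 mice, with an adjusted p of 0.0469 for every such step, from an exact test whose smallest unadjusted p is 0.03125. The order was taken from the same 6 mice, and any step held by 6 of 6 gives that smallest p. For such steps the p therefore adds nothing to the count of mice. Hdac9 and Hdac7 were level with each other at 5.44 ± 0.901 and 5.30 ± 1.13 CPM per kb (SD, n = 6), with Hdac9 higher in 3 of 6 mice (ratio 1.03, range 0.698 to 1.66, adjusted p = 0.844, exact paired permutation test). Hdac4 was last in every mouse at 1.49 ± 0.249 CPM per kb (SD, n = 6), and Hdac7, its neighbour above, was 3.54-fold higher (range 2.68 to 4.92, adjusted p = 0.0469). The first step, from Hdac11 down to Hdac2, was 4.43-fold (range 3.85 to 4.83, adjusted p = 0.0469). These places depend on the length used. With the coding length Hdac11 stayed first and Hdac4 last, but Hdac3 (73.0 CPM per coding kb) and Hdac2 (65.1) lay above Hdac5 (45.4), and Hdac6 (17.8) was level with Hdac8 (17.6). With the median transcript length, which counts short fragments, Hdac11 stayed first and Hdac5 came next at 207 CPM per kb, far above Hdac2 (65.5) and Hdac3 (65.8). On that length Hdac6 (67.3) lay above Hdac1 (39.7) and Hdac9 (13.8) above Hdac8 (10.3), which turns those steps around, and Hdac4 was in place 8 and Hdac7 in place 10.

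**Figure D1:**
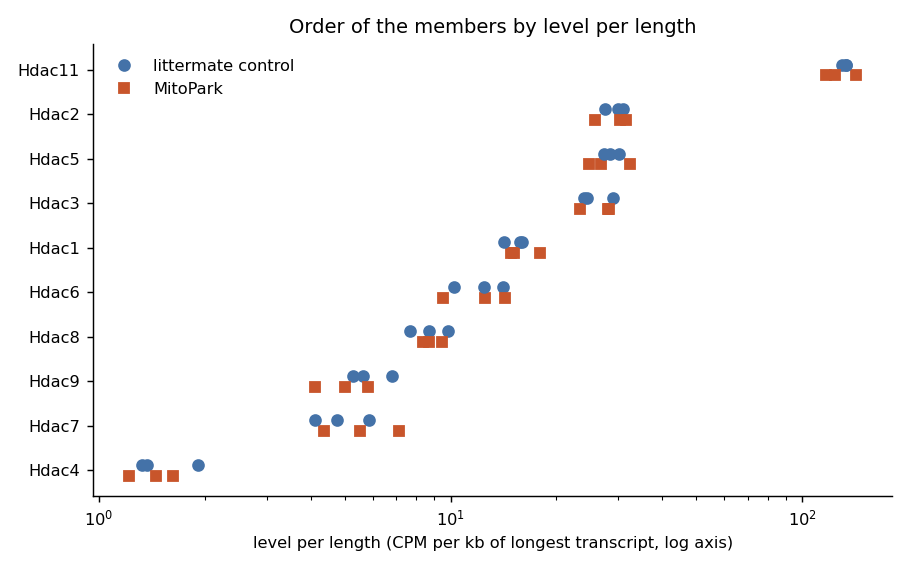
Level of each HDAC member per length (CPM per kb of the longest transcript, log axis) in 3 littermate controls (circles) and 3 MitoParks (squares), with 1 point per mouse and the members ordered by their mean. Hdac11 lies alone at the top between 117 and 142 CPM per kb, Hdac4 alone at the bottom between 1.22 and 1.91, and the points of both groups lie over each other at every member.

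Among class I members, no difference between the groups was larger than the spread within them. Hdac2, a core enzyme of the Sin3, NuRD and CoREST corepressor complexes, was at 100.2, 97.1 and 89.6 CPM in littermate controls, against 103, 98.5 and 83.7 CPM in MitoParks 1, 2 and 3. Both the highest and the lowest value were in MitoParks, and the means differed by less than 1 CPM (95.65 ± 5.442 against 94.97 ± 10.01 CPM, SD, n = 3 each). The log2 fold change of Hdac2 was -0.01 with a 95% interval from -0.26 to 0.24, or 0.834-fold to 1.18-fold (edgeR's quasi-likelihood test, unadjusted p = 0.93, adjusted p = 0.999).

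Hdac1, the partner of Hdac2 in the same complexes, was at 32.2, 28.9 and 32.5 CPM in littermate controls, against 30.4, 30.8 and 36.5 CPM in MitoParks. MitoPark 3 had the highest value and the other 2 MitoParks lay inside the control range (log2 fold change 0.06, 95% interval -0.22 to 0.34, edgeR's quasi-likelihood test, unadjusted p = 0.622). Hdac3, the enzyme of the NCoR and SMRT complexes, was at 85.9, 103 and 87.7 CPM in littermate controls, against 101, 83.5 and 101 CPM in MitoParks. In both groups Hdac3 spread over a similar range, and its log2 fold change was 0.04 (95% interval -0.23 to 0.32, unadjusted p = 0.742 from the same test). Hdac8, which deacetylates the cohesin subunit Smc3, was at 19.7, 22.3 and 17.4 CPM in littermate controls, against 19.8, 21.4 and 18.9 CPM in MitoParks. All 3 MitoParks lay inside the control range of Hdac8 (log2 fold change 0.02, 95% interval -0.29 to 0.32, unadjusted p = 0.904, edgeR's quasi-likelihood test).

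**Figure D2:**
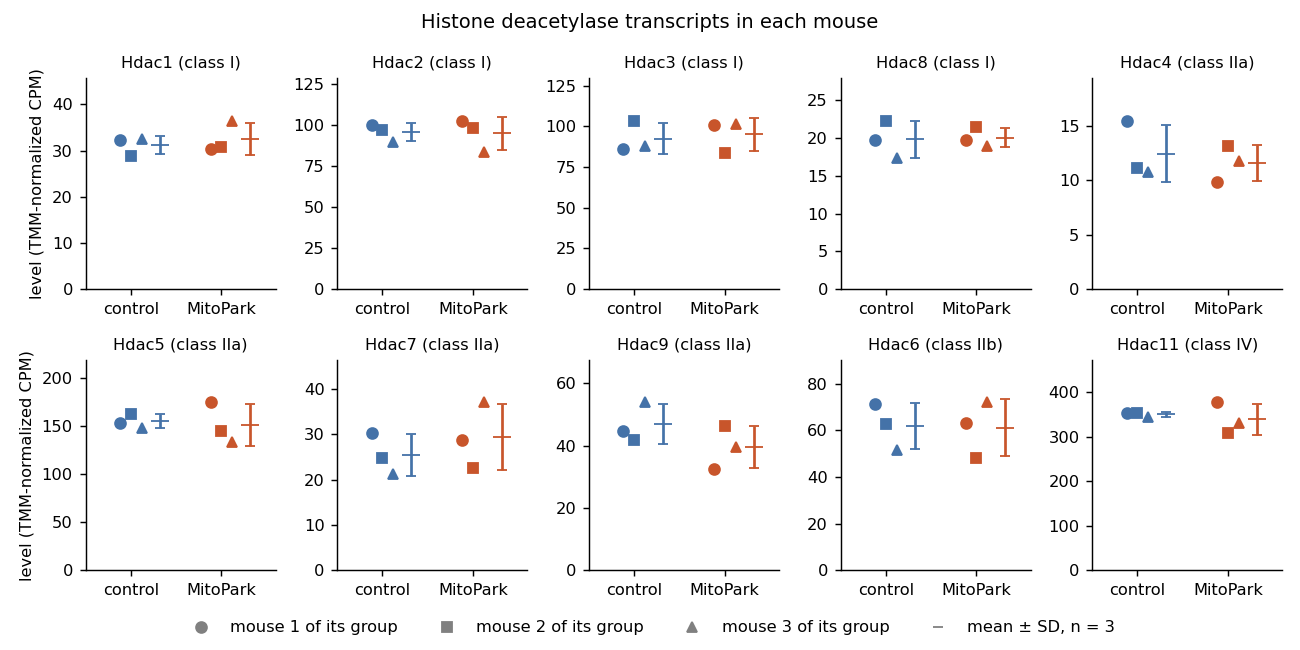
Level of each member (TMM-normalized CPM, each axis from 0) in each littermate control and each MitoPark, where symbols give the mouse number within its group and the bars beside them the mean ± SD of 3 mice. The groups overlap in all 10 panels, with the largest shifts of the mean by fold at Hdac9 (46.9 to 39.6 CPM) and Hdac7 (25.4 to 29.4 CPM).

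Class IIa held the members with the largest fold changes in either direction, Hdac9 and Hdac7, and the means of this class moved in different directions. Hdac4, the class IIa member at the centre of the study's protein work, stood at 15.5, 11.1 and 10.75 CPM in littermate controls (139, 117 and 110 counts), against 9.87, 13.1 and 11.8 CPM in MitoParks (81, 130 and 104 counts). Littermate control 1 was the highest and MitoPark 1 the lowest, and MitoParks 2 and 3 lay above littermate controls 2 and 3. The log2 fold change of Hdac4 was -0.10 with a 95% interval from -0.53 to 0.34 (edgeR's quasi-likelihood test, unadjusted p = 0.635, adjusted p = 0.999), which spans 0.691-fold to 1.27-fold. Without littermate control 1 it was 0.09, without MitoPark 1 it was 0.01, and without littermate control 3 it was -0.19, so the sign of the Hdac4 difference rested on single mice.

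Hdac9 had the lowest log2 fold change and the smallest p of the family. It was at 44.8, 41.8 and 54.1 CPM in littermate controls, against 32.7, 46.4 and 39.7 CPM in MitoParks. MitoParks 1 and 3 were below every littermate control, while MitoPark 2 was above littermate controls 1 and 2. Its mean in MitoParks was 84.5% of that in littermate controls, which gave a log2 fold change of -0.24 (SE 0.16, 95% interval -0.60 to 0.11, edgeR's quasi-likelihood test, unadjusted p = 0.159, adjusted p = 0.999; exact permutation test, p = 0.3). By p it stood in place 952 of the 14568 genes tested. The log2 fold change was below 0 in each fit that left out 1 mouse, from -0.37 without MitoPark 2 to -0.13 without littermate control 3 and -0.11 without MitoPark 1.

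Hdac7, a class IIa member known from endothelial cells and thymocytes, was at 30.3, 24.7 and 21.3 CPM in littermate controls, against 28.7, 22.6 and 37.1 CPM in MitoParks. The higher mean in MitoParks came from MitoPark 3, since MitoParks 1 and 2 lay inside the control range. The log2 fold change of Hdac7 was 0.21 (95% interval -0.23 to 0.65, edgeR's quasi-likelihood test, unadjusted p = 0.314), and without MitoPark 3 it was 0.01. Without the males, which left 2 mice per group in a fit added after the data were seen, it was 0.52 (unadjusted p = 0.0261, adjusted p = 0.806, edgeR's quasi-likelihood test). Of 3 endothelial markers, Cldn5 was highest in MitoPark 3 (23.9 CPM, against 13.7 to 18.8 CPM in the other 5 mice), Pecam1 was lowest there at 13.5 CPM, and Flt1 was at 48.3 CPM. The 3 together summed to between 69.2 and 106 CPM in littermate controls and between 81.7 and 100.3 CPM in MitoParks, with 85.7 CPM in MitoPark 3. The part of endothelial cells in the Hdac7 level was not tested. Hdac5, the most abundant class IIa member, was at 153, 162 and 148 CPM in littermate controls, against 175, 144 and 134 CPM in MitoParks, so that MitoParks spread on both sides of the controls (log2 fold change -0.04, 95% interval -0.31 to 0.24, unadjusted p = 0.778).

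Hdac6, the cytoplasmic deacetylase of tubulin, was at 71.1, 62.8 and 51.5 CPM in littermate controls, against 63.1, 48.0 and 72.1 CPM in MitoParks. The groups covered much the same range, and the log2 fold change was -0.02 (95% interval -0.40 to 0.37, unadjusted p = 0.925, edgeR's quasi-likelihood test). Hdac6 and Hdac7 followed the same order within each group, with littermate control 1 above 2 above 3 and MitoPark 3 above 1 above 2. Hdac6 and Hdac8 lie on the X chromosome. The male littermate control had the most Hdac6 of its group and the male MitoPark the least, and for Hdac8 the males were in the middle and at the top of their groups. Hdac11 was at 354, 353 and 343 CPM in littermate controls, against 378, 309 and 330 CPM in MitoParks. The controls of Hdac11 lay within a narrow band and the MitoParks on both sides of it (log2 fold change -0.05, 95% interval -0.30 to 0.21, unadjusted p = 0.685).

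Across the family, 0 of 10 members passed both cutoffs of the study (fold change above 1.5 and p below 0.05, taken here as unadjusted), where 0.577% of the 14568 genes tested did. Without the fold cutoff the count was also 0, against 1.11% of all genes tested, and DESeq2's Wald test, edgeR's exact test and limma-voom likewise gave 0 of 10 at that threshold. The adjusted p was 0.999 for each member (Benjamini-Hochberg over all genes, edgeR's quasi-likelihood test). This was also the smallest adjusted p of all 14568 genes tested, so it does not set the members apart. In none of the 10 were the groups separate, which was the case for 4.71% of all genes tested, and exact permutation tests gave p-values from 0.3 to 1 where 3 mice against 3 cannot go below 0.1. Of the members, 4 had a higher and 6 a lower mean in MitoParks, where 51.4% of all genes tested were lower, and the median log2 fold change was -0.01 against -0.005 for all genes tested.

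These intervals limit how large a change in the RNA of the whole tissue could have been missed. They do not cover a change confined to DAergic neurons, which RNA of other cells would dilute. Tfam, deleted only in cells that express the transporter, was at 0.760-fold in the same RNA. For 8 of the 10 members the 95% interval lay wholly within 1.5-fold in either direction, as it did for 89.0% of the 9525 genes whose mean level was within the range of the members. The exceptions were Hdac7, with an upper bound of 1.57-fold, and Hdac9, with a lower bound of 0.661-fold. The within-group coefficient of variation ran from 7.44% for Hdac11 to 21.6% for Hdac7, against a median of 11% for genes at these levels. For Hdac4, the member with the fewest reads, it was 18.0%, where counting alone would give 9.39%. The squares of such coefficients add, not the coefficients themselves, so counting was the smaller part of this spread. With it, smaller changes of Hdac4 were not detectable with 3 mice per group.

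**Figure D3:**
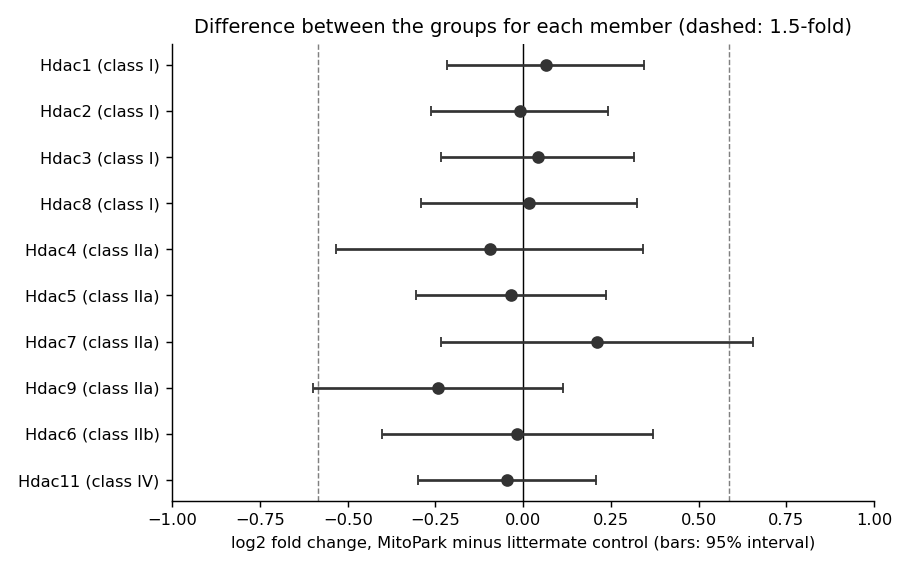
Log2 fold change of each member (MitoPark minus littermate control, 3 mice each) with its 95% interval from edgeR's quasi-likelihood fit, where dashed lines mark 1.5-fold. Every interval includes 0, and those of Hdac7 (upper end 0.65) and Hdac9 (lower end -0.60) reach past a dashed line.

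Summed by class, no class of the family separated MitoParks from littermate controls. Class I members summed to 79.3, 82.8 and 75.6 CPM per kb in littermate controls and to 83.3, 78.2 and 80.3 CPM per kb in MitoParks. Class IIa members summed to 41.8, 41.5 and 39.6 CPM per kb in littermate controls and to 43.2, 38.5 and 38.3 CPM per kb in MitoParks. MitoPark 1 had the highest sum of both classes. Class I made up between 29.5% and 32.2% of the family in each of the 6 mice, class IIa between 14.9% and 15.9%, Hdac6 between 3.93% and 5.57%, and Hdac11 between 48.0% and 50.8%. With the median transcript length, tried for class shares after the data were seen, the order of these classes turned, with class IIa at 23.4% to 26.3% and class I at 18.2% to 20.0% of the family, and the groups still overlapped in every class. Per kb of the longest transcript and within mice, Hdac2 exceeded Hdac1 by 1.73-fold to 2.11-fold in littermate controls and by 1.44-fold to 2.12-fold in MitoParks.

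On the other side of the balance, 10 HAT genes summed to 149, 147 and 146 CPM per kb in littermate controls and to 145, 154 and 143 CPM per kb in MitoParks. The HDAC sum held the 10 members and left out Hdac10 and the sirtuins. The ratio of the summed HATs to the summed HDACs was 0.555, 0.545 and 0.571 in littermate controls and 0.517, 0.635 and 0.554 in MitoParks. MitoParks lay on both sides of the controls, and the means were 0.557 ± 0.0134 and 0.569 ± 0.0606 (SD, n = 3 each). Without Hdac11 in the sum, the means of the ratio were 1.11 ± 0.0432 and 1.11 ± 0.0946 (SD, n = 3 each). The ratio with Hdac11 also depends on the length used. With the median transcript length it was 0.487, 0.444 and 0.5163 in littermate controls and 0.4195, 0.5683 and 0.5369 in MitoParks, and the groups still overlapped. These sums describe transcripts and carry no measure of enzyme amount or activity.

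**Figure D4:**
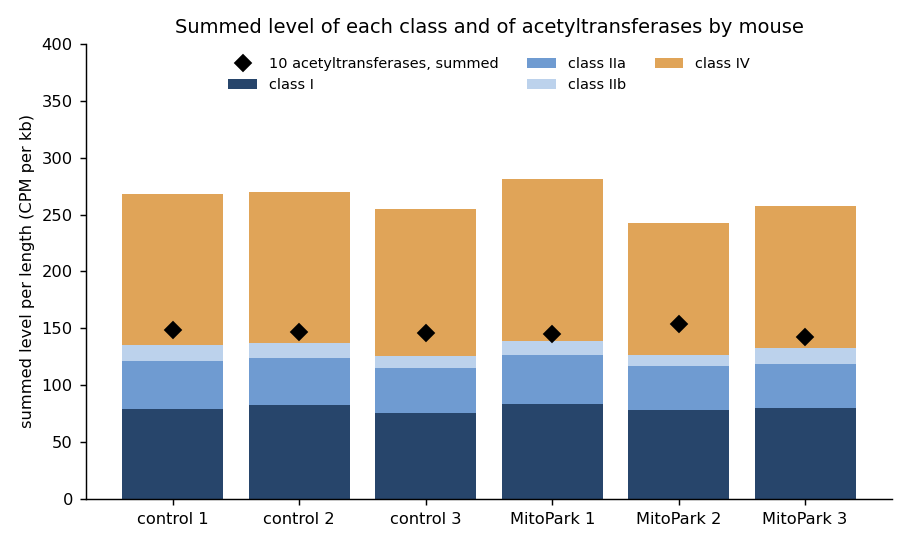
Summed level per length (CPM per kb of the longest transcript) of HDAC classes I, IIa, IIb and IV in each mouse (stacked bars), with the sum of 10 histone acetyltransferases as diamonds. The bars reach 243 to 281 CPM per kb, the diamonds lie between 143 and 154, and Hdac11 (class IV) makes up 48.0% to 50.8% of every bar.

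None of the 10 HAT genes passed the test, where 1.11% of all genes tested had an unadjusted p below 0.05. Of the 10, 7 were higher and 3 lower in MitoParks, with a median log2 fold change of 0.03 (smallest unadjusted p = 0.409, edgeR's quasi-likelihood test). Hat1, which acetylates newly made histone H4 before its deposition, was at 20.1, 25.5 and 23.1 CPM in littermate controls, against 19.3, 24.5 and 20.3 CPM in MitoParks (log2 fold change -0.10, 95% interval -0.43 to 0.23). Kat5 and Kat7, catalytic subunits of complexes that acetylate histone H4 on chromatin, had log2 fold changes of 0.0007 and -0.08, and Kat8 had 0.09. Crebbp and Ep300, a pair of broad coactivator acetyltransferases, were at 0.12 and 0.03, Kat2a and Kat2b, which act mainly on histone H3, at 0.04 and 0.11, and Kat6a and Kat6b at -0.02 and 0.08. Relative to its level, Kat2b varied most of the 10, with a within-group coefficient of variation of 26.45% and values from 37.7 to 65.8 CPM.

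The NAD-dependent deacetylases, the sirtuins or class III, did not pass the test either, with 5 of 7 higher and 2 lower. Sirt7, a nucleolar sirtuin, came closest, at 11.7, 12.9 and 15.3 CPM in littermate controls, against 18.7, 13.4 and 20.4 CPM in MitoParks. MitoParks 1 and 3 were above every littermate control and MitoPark 2 inside their range (log2 fold change 0.39, standard error 0.19, unadjusted p = 0.0663, adjusted p = 0.999, edgeR's quasi-likelihood test). Without MitoPark 2 the log2 fold change of Sirt7 was 0.56 (unadjusted p = 0.00914), without littermate control 3 it was 0.50 (unadjusted p = 0.0353), and with the replicate number as a block 0.38 (unadjusted p = 0.0388). Without the males it was 0.48 (unadjusted p = 0.0287, all from edgeR's quasi-likelihood test). These fits of Sirt7 are named because their p was below 0.05, and in the remaining alternatives it was not. The other sirtuins ranged from -0.02 for Sirt5, a mitochondrial desuccinylase, to 0.10 for Sirt4, with Sirt3, the main mitochondrial deacetylase, at 0.08, Sirt1 at 0.05, Sirt2 at 0.03 and Sirt6 at -0.001. Hdac10, the other class IIb gene, was lowly expressed at 6.27 to 8.50 CPM in the 6 mice and had a log2 fold change of 0.03.

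The partners through which HDACs act gave no call either. Over all 86 related genes, 0 were below 0.05 in p before adjustment by edgeR's quasi-likelihood test, where 1.11% of all genes tested were. DESeq2's Wald test and limma-voom also gave none at that threshold. Of the 86 genes, 36 were higher and 50 lower in MitoParks, where 51.4% of all genes tested were lower. Their median log2 fold change was -0.02. Among 15 subunits of the Sin3 complex, 6 were higher and 9 lower, from Sap30l at -0.15 (unadjusted p = 0.294) to the low-count gene Sap30 at 0.50 (unadjusted p = 0.157). Among 10 subunits of the NuRD complex, 7 were higher and 3 lower, with Gatad2b at -0.29 (unadjusted p = 0.119) and the ATPase Chd4 at 0.12 (unadjusted p = 0.327). The 7 CoREST genes ranged from Rcor1 at -0.19 (unadjusted p = 0.384) to Hmg20b at 0.15, and Phf21a, at 0.13, had the smallest p of that list, 0.294. The 5 NCoR and SMRT genes ranged from Gps2 at -0.10 to Tbl1x at 0.04, with Ncor1 at 0.04.

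For class IIa, the 3 MEF2 genes were between -0.08 (Mef2d, unadjusted p = 0.552) and -0.02 on the log2 scale. All 6 genes of 14-3-3 proteins had a lower mean in MitoParks, by -0.04 to -0.13, and none passed the test. Of all genes tested, 51.4% were lower. Against 4.71% of all genes tested, 1 gene of the 86 had groups that did not overlap. This was Ywhaq, at 489, 512 and 511 CPM in littermate controls, against 483, 474 and 428 CPM in MitoParks (log2 fold change -0.13, unadjusted p = 0.268, exact permutation test, p = 0.1). Of 13 kinases that can phosphorylate class IIa members, 2 were higher and 11 lower, with Camk2d at -0.15 (unadjusted p = 0.231) and Prkd3 at 0.18 (unadjusted p = 0.405). Camk2d had an unadjusted p of 0.0312 without MitoPark 2 and of 0.0418 without the males (edgeR's quasi-likelihood test). Prkd3 had an unadjusted p of 0.0319 without littermate control 3 (same test). These fits are named because their p was below 0.05, and in the remaining alternatives the p of both genes was not. MitoPark 2 had the most Camk2d of all mice and littermate control 3 the most Prkd3, so leaving them out widened the difference. Around Hdac6, Hsp90aa1, a substrate, was at -0.11 (unadjusted p = 0.45) and Cttn, another substrate, at 0.04 (unadjusted p = 0.677). Rtn1, an endoplasmic reticulum protein gene that the study followed in cultured cells, is a candidate HDAC-controlled gene. Rtn1 was at 995, 978 and 864 CPM in littermate controls, against 1053, 849 and 906 CPM in MitoParks (log2 fold change -0.02, unadjusted p = 0.91).

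Markers of cell types differed between mice, and their values are set beside those of the members. All 9 DAergic neuron markers had a log2 fold change below 0, as did 51.4% of all genes tested. Of them, 1 passed both cutoffs, against 0.577% of all genes tested. This was Slc6a3, the gene that holds Cre at 1 copy in MitoParks. Summed over these 9 markers, levels were 434, 517 and 1415 CPM in littermate controls 1, 2 and 3, against 293, 531 and 526 CPM in MitoParks 1, 2 and 3. Th, the rate-limiting enzyme of dopamine synthesis, was at 55.7, 47.4 and 159 CPM in the first group and at 39.0, 57.0 and 65.5 CPM in the second. Hdac9 was highest in littermate control 3 and lowest in MitoPark 1, the mice with the most and the least of these markers. Its log2 level was 0.34 above and 0.39 below the mean of the 6 mice in them, where the average of the markers was 1.57 above and 1.46 below. The part of DAergic cells in the Hdac9 difference was not tested. Hdac4 was below its mean in both of these mice.

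Oligodendrocyte markers, Mbp among them, summed to 6712, 9465 and 17800 CPM in littermate controls and to 9218, 11960 and 15140 CPM in MitoParks. Hdac11 stayed between 343 and 354 CPM over the same littermate controls, while Sirt2, a sirtuin rich in myelinating cells, was at 115, 155 and 199.7 CPM in them and at 147, 153 and 179.6 CPM in MitoParks. Sirt2 was thus lowest in the littermate control with the fewest oligodendrocyte transcripts and highest in the one with the most. The ranges of the sums of the other marker lists overlapped between the groups, and each sum mostly follows its most abundant genes. Sums ran from 3855 to 5028 CPM in littermate controls, against 3675 to 4454 CPM in MitoParks for 5 neuron markers (Rbfox3, Snap25 and others), from 2748 to 3263 and 2939 to 3476 CPM for 5 astrocyte markers (Aqp4, Gfap and others), from 132 to 174 and 160 to 174 CPM for 5 microglia markers (Cx3cr1, P2ry12 and others), and from 97.6 to 115 and 94.9 to 114 CPM for the precursor markers Pdgfra and Cspg4. Taken singly, 4 of 5 astrocyte and 4 of 5 microglia markers were higher in MitoParks, and 1 of each was lower. Gfap was at 238.6 ± 99.03 against 386.9 ± 149.8 CPM (SD, n = 3 each, unadjusted p = 0.0548, edgeR's quasi-likelihood test). Groups of Aif1, a low-count gene, did not overlap (3.13 to 3.23 against 3.41 to 6.12 CPM), as for 4.71% of all genes tested. Choroid plexus markers varied widely, with Ttr and Folr1 together at 4.398 to 133 CPM in littermate controls, against 1.22 to 23.4 CPM in MitoParks. The part of these cell types in the levels of the members was not tested.

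**Figure D5:**
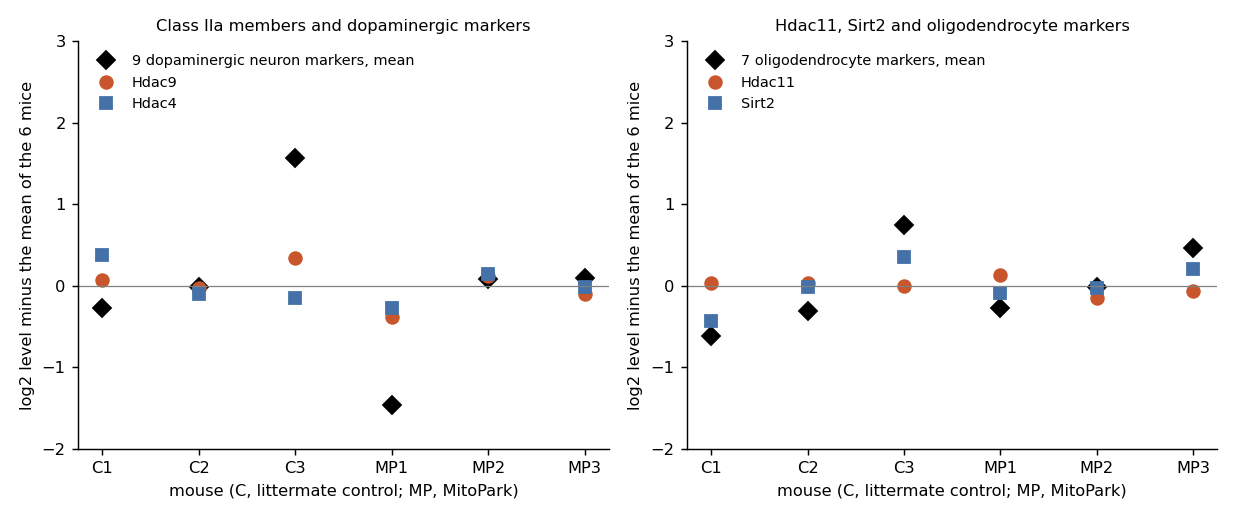
Log2 level minus the mean of the 6 mice (C, littermate control, MP, MitoPark) for Hdac9 and Hdac4 with the average of 9 dopaminergic neuron markers (left) and for Hdac11 and Sirt2 with the average of 7 oligodendrocyte markers (right). Hdac9 is highest in C3 (0.34) and lowest in MP1 (-0.39), where the dopaminergic markers are at 1.57 and -1.46, and Hdac11 stays between -0.15 and 0.14 in every mouse.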

How the data were processed

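The authors mapped single-end reads to UCSC transcripts with Bowtie2 2.1.0, estimated expected counts per gene with RSEM 1.2.15 and deposited them without normalization, and 0 columns belong to no mapped sample. The methods also describe a HISAT2 alignment and a cutoff on adjusted p, and the cutoffs used here are those stated with edgeR. The mouse build of the Bowtie2 alignment is not given in the sources used here, so the GRCm38 coordinates belong to the GENCODE M21 reference, not to the files. Groups came from the sample titles. Expected counts were rounded, genes were kept where either group had a mean above 1 CPM (14568 of 24054), and edgeR 4.0.16 (R 4.3.3) with TMM fitted a quasi-likelihood model of group. P-values were adjusted over all tested genes (Benjamini-Hochberg). Single genes were also compared by exact two-sided permutation of log2(CPM + 0.1), and neighbours in the order by an exact two-sided sign-flip test over the 6 mice. The procedure was tested on simulated data. Within groups, counts of every pair of mice differed by more than sampling noise (chi-square per degree of freedom 10.1 or more). The labels do not say that the mice were prepared separately, so p-values measure the spread between these samples.

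Counts carry no molecular identifiers, and total expected counts were 8140777 to 10528602 per mouse, where 3 counts are 0.285 to 0.366 CPM. Members and gene lists were chosen with earlier results of these data known. Named genes are the 10 members, Tfam, Th, Slc6a3, Rtn1, Hat1, all sirtuins and HATs, in each other list the gene with the smallest p in each direction, and the first genes of each marker list, of which some are not reported here. Hmg20b, Tbl1x, Hdac10, Aif1 and the remaining endothelial marker were named after their values were seen. DESeq2 1.42.0 and limma 3.58.1 served as alternatives. A protein comparison was planned and not made, since no protein sequences were used here.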

Additional observations from a re-analysis of the deposited data

How the results depend on the processing

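No HDAC member and none of the 86 related genes passed both cutoffs under any of the 16 alternatives, which were DESeq2's Wald test, edgeR's exact and likelihood ratio tests, limma-voom, RLE and total count normalization, 2 other filters, the replicate number as a block, each mouse left out in turn, and a fit without the 2 males that was added after the data were seen. Of 160 values of members under alternatives, 1 had an unadjusted p below 0.05 (Hdac7 without the males, log2 fold change 0.52, edgeR's quasi-likelihood test). With all 6 mice, 89 of 90 values kept their direction, the exception being Hdac2 with total counts (0.002), while with mice left out only Hdac7 and Hdac9 kept theirs throughout. Of 1375 values of related genes, 7 had an unadjusted p below 0.05, in Sirt7, Camk2d and Prkd3.

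Differentially expressed genes here passed both cutoffs with unadjusted p, and 0 genes had an adjusted p below 0.05 in the main fit. The number of differentially expressed genes in the whole table (84, with 55 higher and 29 lower) moved to 176 (107 higher, 69 lower) without a filter, to 31 (21 higher, 10 lower) with a mean CPM above 5, and to 309 (205 higher, 104 lower) without the males. With 1 mouse left out it ranged from 62 to 219 (26 to 152 higher, 27 to 77 lower). Whether the numbers 1 to 3 in the labels pair the mice cannot be decided from 3 mice per group. Between mice of the same number, deviations from the group means correlated at 0.307, -0.07 and 0.244. Littermate controls 1 and 3 correlated best with the MitoPark of their own number, and littermate control 2 with MitoPark 1. With the replicate block there were 126 such genes, 83 of them higher and 43 lower, and 0 members with an unadjusted p below 0.05. The order of the members kept 10 of 10 places in 4 and 8 of 10 in 2 of the 6 orders without 1 mouse, 7 with the coding length (added after the data were seen), and 2 with the median transcript length. Fits without 1 mouse compare 2 mice with 3.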
